A study of Homo sapiens with 4 samples.

Results

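The respiratory chain subunits examined here are 59 protein-coding genes, chosen by symbol from a list and matched to the gene identifiers of the count table. Of the 60880 genes in the table, 13 members are the protein-coding genes of mitochondrial DNA (mtDNA) and 46 are nuclear genes for subunits of complexes I to V. All 59 were found and all 59 passed the filter on low counts. The set was picked because reads of mtDNA-encoded genes fell in the same comparison. The values below therefore describe these libraries, and no p-value is given for a member.

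RNA-Seq counts came from LNCaP95, a subline of the human prostate cancer line LNCaP that grows without androgen, and from LN95(KO), made with CRISPR aimed at UGT2B17, a gene for an androgen-inactivating enzyme. Its sample labels give the cell line as LN95 and the study describes LNCaP95 as its parent, but the design text writes LNCaP instead, a conflict that could not be settled from the sources used here. Each group had 2 libraries, namely replicates 1 and 2 of LNCaP95 (genotype WT) and replicates 3 and 4 of LN95(KO) (genotype UGT2B17 KO). All cells were kept in RPMI1640 with charcoal-stripped serum and were untreated, and RNA was selected with oligo(dT). How many knockout clones were used was not given, and nothing states that the libraries of a group came from separate cultures, so the tests measure the spread between these libraries, which may be technical.

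Oxidative phosphorylation runs on 5 complexes in the inner mitochondrial membrane. Complexes I, III and IV pass electrons to oxygen and pump protons, complex II feeds electrons from succinate, and complex V makes ATP from the returning protons. Complexes I, III, IV and V are built from subunits of both genomes, while every subunit of complex II is nuclear. The mtDNA-encoded subunits form the membrane cores and are made inside the organelle, so the products of the separate genomes must meet there to be assembled.

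Depth was similar in the 4 libraries, with 17330338 to 18813193 gene reads and 23775 to 24173 genes detected. UGT2B17 had 2788 and 2748 counts in LNCaP95, against 21 and 20 in LN95(KO), for a log2 fold change of -7.04 (SE 0.10). The luminal prostate genes KRT8, KRT18, HOXB13 and FOXA1 were expressed in all libraries, with log2 fold changes of 0.39, 0.07, -0.49 and -0.85, of which that of KRT18 did not pass the test. Of the other markers, KRT5, TP63, PTPRC, CD3E, CD68 and CDH5 had at most 3 counts in any library. For CD68, 85.6% of exon bases lie under another gene, where reads were left out of the counting, so its count need not reflect its RNA. KRT14 went from 1 and 2 counts to 17 and 20, VWF from 8 and 8 to 49 and 58, and PDGFRB from 22 and 18 to 44 and 44, while COL1A1 had 520 to 606 counts, COL1A2 1 to 5 and COL3A1 10 to 22. The share of entries that did not align was 3.85% and 3.96% for LNCaP95, against 8.05% and 7.71% for LN95(KO). Their part in the results below was not tested.

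Messenger RNAs of mtDNA took a smaller share of the LN95(KO) libraries. The 13 protein-coding genes of mtDNA held 17.78% and 18.28% of gene reads in LNCaP95, against 12.49% and 11.98% in LN95(KO). The groups did not overlap, and the means were 18.03% ± 0.35 and 12.23% ± 0.361 (SD, n = 2 libraries in each group). The 95% Wilson interval was 17.76% to 17.80% for LNCaP95 replicate 1 and 12.47% to 12.51% for LN95(KO) replicate 3, so counting error was far below the spread between libraries. With all reads as the base, unaligned ones included, the difference was -4.83 percentage points in place of -5.79. In libraries of whole cultures, fewer cells with these RNAs and less of them in each cell cannot be told apart.

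Reads of the 46 nuclear subunits went the other way. They made up 0.627% and 0.598% of gene reads in LNCaP95, against 0.855% and 0.910% in LN95(KO). With genes of mtDNA left out of the base the shares were still 0.807% and 0.776% against 1.02% and 1.08%. A ratio that needs no scaling puts both genomes in 1 value. For each read on a nuclear member there were 28.3 and 30.6 reads on the 13 mtDNA-encoded members in LNCaP95, against 14.6 and 13.2 in LN95(KO). The mean ratio in LN95(KO) was 0.472 times that in LNCaP95.

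Of the 13 mtDNA-encoded members, 12 passed the test lower in LN95(KO) and MT-ATP8 did not pass. The test was the quasi-likelihood test of edgeR with Benjamini-Hochberg adjustment over 15626 genes, and a gene passed at an adjusted p under 0.05. Across all genes tested 59.8% passed, 29.8% higher and 30.1% lower, and 79.8% had groups that did not overlap, so passing or not overlapping was common in this comparison. The median log2 fold change of the 13 was -0.55, or 68.2% of the LNCaP95 level for MT-ND1, which holds that median. The median of all genes tested was -0.01, with an interquartile range of -0.37 to 0.37.

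**Figure D1:**
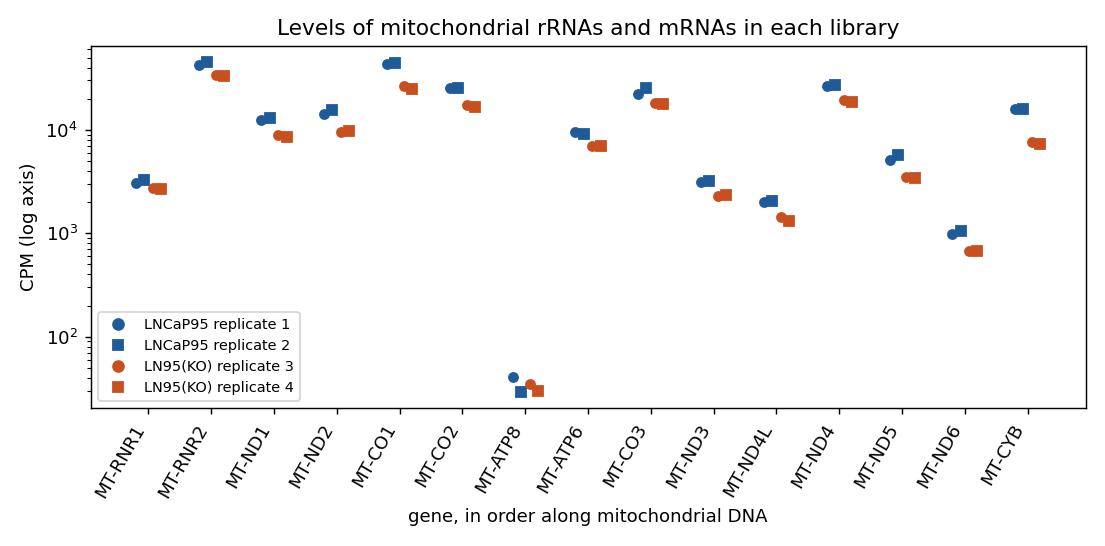
Level of each mitochondrial rRNA and mRNA in CPM (counts scaled to library size, log axis) in the 4 libraries, with genes in their order along mtDNA and one point per library. In every gene but MT-ATP8 both LN95(KO) points lie below both LNCaP95 points.

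MT-CYB, the cytochrome b of complex III, was the mtDNA-encoded member with the largest difference. It had 294722 and 288535 counts in LNCaP95, against 134335 and 133635 in LN95(KO). The level went from 15861 ± 152 CPM to 7456 ± 189 CPM, and the log2 fold change was -1.09 (SE 0.05). MT-CYB was the only mtDNA-encoded member past a fold of 2, which 9.13% of all genes passed in that direction.

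The 3 core subunits of complex IV, cytochrome c oxidase, fell by unequal amounts. MT-CO1 had 800480 and 805966 counts in LNCaP95 against 466488 and 455068 in LN95(KO), for a log2 fold change of -0.77 (SE 0.05). MT-CO2 had 471741 and 460350 counts against 307412 and 302794, a log2 fold change of -0.58 (SE 0.05). MT-CO3 had 405715 and 460104 counts against 322425 and 324102, a log2 fold change of -0.39 (SE 0.06). The groups did not overlap in any of the 3, beside 79.8% of all genes tested, and the LNCaP95 libraries were farthest apart in MT-CO3.

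The 7 mtDNA-encoded subunits of complex I, which build its proton-pumping arm, lay close together, with log2 fold changes from -0.65 to -0.45. At one end was MT-ND5, with 94709 and 103500 counts in LNCaP95, against 61433 and 62223 in LN95(KO). At the other was MT-ND3, with 57147 and 57998 counts against 40333 and 42352. Between them lay MT-ND2 at -0.63, MT-ND6 at -0.60, MT-ND1 at -0.55, MT-ND4L at -0.54 and MT-ND4 at -0.51, each with an SE of 0.05. MT-ND6, the only one of the 13 on the minus strand of mtDNA, had 18024 and 19255 counts against 11817 and 12221. Since reads were counted without regard to strand, RNA from the opposite strand at MT-ND6 cannot be told apart.

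The mtDNA-encoded subunits of complex V are MT-ATP6, part of its proton channel, and MT-ATP8, a small membrane subunit. MT-ATP6 had 176560 and 168757 counts in LNCaP95, against 124733 and 126224 in LN95(KO), for a log2 fold change of -0.43 (SE 0.05). MT-ATP8 had 747 and 535 counts against 611 and 544, and the groups overlapped, with a log2 fold change of -0.12 (SE 0.16). It turned to 0.14 without LNCaP95 replicate 1 and passed at -0.33 without LNCaP95 replicate 2.

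MT-ATP8 had far fewer counted reads than its neighbour. Per kilobase, these came to 168 CPM in LNCaP95, against 13789 for MT-ATP6, which follows on the same strand. They need not reflect the amount of RNA. The coding sequences overlap by 46 bases (GRCh37 mitochondrial positions 8527 to 8572), or 22.2% of MT-ATP8, and reads on more than 1 gene were left out by the authors' counting. MT-ND4L and MT-ND4 overlap by 7 bases (positions 10760 to 10766). MT-ATP6 and MT-CO3 share a single base, which is not shown. The other overlaps are shown in capitals with 10 bases on each side in lower case, plus strand of GRCh37, because they are where a read cannot be given to 1 gene. The part of the overlap in the low count was not tested.
MT-ATP8 and MT-ATP6, chrM:8517-8582: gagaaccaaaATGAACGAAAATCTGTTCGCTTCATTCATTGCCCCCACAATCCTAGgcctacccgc
MT-ND4L and MT-ND4, chrM:10750-10776: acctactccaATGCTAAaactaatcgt

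**Figure D2:**
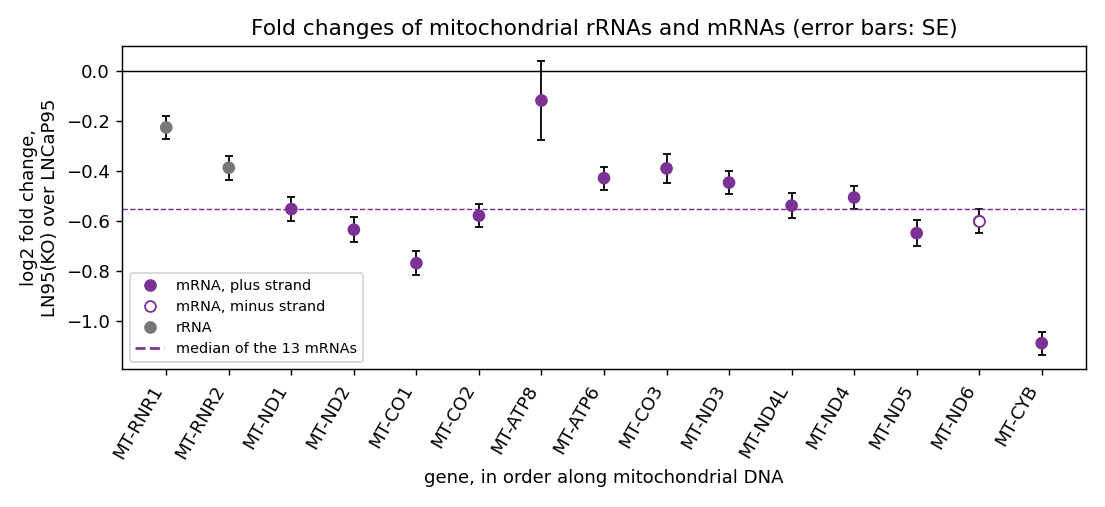
Log2 fold change of LN95(KO) over LNCaP95 for each mitochondrial rRNA and protein-coding gene, in order along mtDNA. Error bars are 1 SE, and the dashed line is the median of the 13 protein-coding genes. MT-CYB lies lowest at -1.09, the stretch from MT-ATP8 to MT-ND4 lies above the line, and both rRNAs lie above it at -0.22 and -0.39.

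Within the pool of mitochondrial mRNA the make-up shifted, a measure that does not depend on library scaling. MT-CYB took 8.81% and 8.43% of the reads on the 13 protein-coding genes in LNCaP95, against 6.21% and 6.20% in LN95(KO). MT-CO1 took 23.9% and 23.6% against 21.6% and 21.1%. Those shares were lower in both LN95(KO) libraries than in either LNCaP95 library. The shares of MT-CO3 were 12.1% and 13.4% against 14.90% and 15.04%, those of MT-ND4 14.8% and 14.5% against 15.9% and 15.7%, and those of MT-ATP6 5.28% and 4.93% against 5.76% and 5.86%, all higher in LN95(KO). For MT-ND2 the shares overlapped, at 7.91% and 8.32% against 7.76% and 8.28%.

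Other RNAs of mtDNA were compared with the mRNAs. The ribosomal RNA MT-RNR2 had 786823 and 821642 counts in LNCaP95, against 603968 and 599118 in LN95(KO), for a log2 fold change of -0.39 (SE 0.05). MT-RNR1 had 56376 and 59646 counts against 48152 and 48925, a log2 fold change of -0.22 (SE 0.05). Both were nearer to 0 than the median of -0.55 for the protein-coding genes, with MT-RNR2 level with MT-CO3. RNA was selected with oligo(dT), so capture and amount of an RNA of mtDNA cannot be told apart. Of the 22 tRNA genes only MT-TP, for the proline tRNA on the minus strand, passed the filter. It had 751 and 835 counts in LNCaP95, against 1032 and 1147 in LN95(KO), for a log2 fold change of 0.49 (SE 0.07), on the other side of 0 from the mRNAs, and its reads too can come from either strand.

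Nuclear DNA holds copies of mtDNA that can take reads of these genes. The 404 copies found by symbol held 0.304% and 0.337% of gene reads in LNCaP95, against 0.205% and 0.176% in LN95(KO). The copy of MT-CO1 on chromosome 1, MTCO1P12, had 50575 and 54094 counts against 30671 and 26940, or between 5.92% and 6.71% of the MT-CO1 count. Of the 100-base windows of MT-CO1, 27.9% occur unchanged in MTCO1P12. Adding the counts of the 6 chromosome 1 copies to their mitochondrial genes left the median log2 fold change of the 13 at -0.55. That median could hardly move, because MT-ND1 holds it and its copy MTND1P23 had 0.039% to 0.042% of the MT-ND1 count. Reads aligned more than once are not in these counts, so the addition does not restore them.

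Of the 46 nuclear members, 37 passed higher in LN95(KO), 0 passed lower (also 0 at an unadjusted p under 0.05 in edgeR and 0 with DESeq2) and 9 did not pass, beside 29.8% of all genes that passed higher. Their median log2 fold change was 0.43 with an interquartile range of 0.22 to 0.49, and 1 passed a fold of 2, beside 8.86% of all genes in that direction. In 41 of the 46 the groups did not overlap, beside 79.8% of all genes tested. The calls of 31 of the 37 held when each library was left out in turn. NDUFA10, NDUFB6, NDUFC1, SDHD, UQCRFS1 and COX7C lost theirs in at least 1 such fit. The 37 passing nuclear members and the 12 passing mtDNA-encoded members kept their direction under every alternative run, all on these same libraries.

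**Figure D3:**
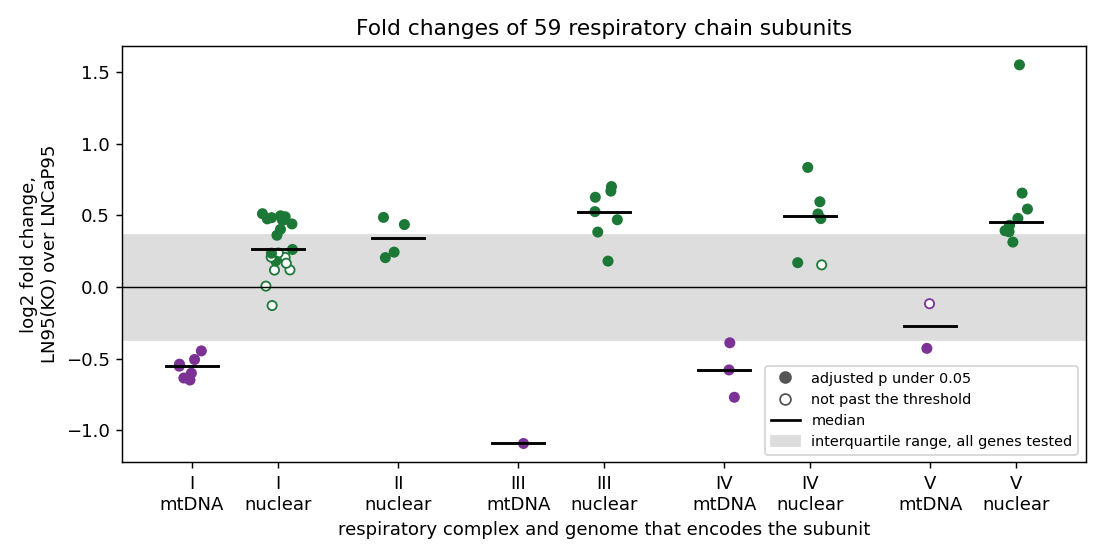
Log2 fold change of LN95(KO) over LNCaP95 for the 59 members by complex and by the genome that encodes them, with filled points for members at an adjusted p under 0.05, black lines for medians and a grey band for the interquartile range of all genes tested. Nuclear medians lie between 0.26 and 0.53, and mtDNA medians between -1.09 and -0.27.

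The gap between the genomes was seen in each complex that both build. Medians of the nuclear and mtDNA-encoded members differed by 0.81 (log2) in complex I, 1.61 in complex III, 1.07 in complex IV and 0.73 in complex V. The value for complex III rests on MT-CYB alone, and that for complex V on 2 mtDNA-encoded genes, 1 of which did not pass. The counts for each complex below stand beside 29.8% of all genes tested that passed higher.

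In complex I, which takes electrons from NADH, 13 of 21 nuclear members passed higher and 8 did not pass, with a median log2 fold change of 0.26. NDUFC2, an accessory subunit, had 284 and 315 counts in LNCaP95, against 388 and 447 in LN95(KO), for a log2 fold change of 0.51 (SE 0.10), and 21.0% of its exon bases lie under another gene. NDUFB3, also accessory, had 736 and 744 counts against 1017 and 1024, a log2 fold change of 0.50 (SE 0.06). NDUFS8, an iron-sulfur subunit of the core, was the highest per kilobase among the nuclear members of its complex and had 2976 and 2845 counts against 3455 and 4071, a log2 fold change of 0.40 (SE 0.06). In these 3 both LN95(KO) libraries exceeded both LNCaP95 libraries, while 79.8% of all genes tested had groups that did not overlap in either direction.

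NDUFS4, an accessory subunit needed for a stable complex I, was the only nuclear member below 0. It had 824 and 747 counts in LNCaP95, against 709 and 695 in LN95(KO), for a log2 fold change of -0.13 (SE 0.07) that did not pass, although the groups did not overlap. NDUFA2, NDUFA5, NDUFA8, NDUFA9, NDUFB8, NDUFS7 and NDUFV2 did not pass either, with log2 fold changes from 0.01 to 0.24. Some of these counts were very low. NDUFV2, a core subunit, had 14 and 17 counts against 24 and 10, NDUFB8 40 and 60 against 56 and 57, and NDUFS7 96 and 96 against 90 and 114. Exon bases under another gene made up 28.4% of NDUFV2, 48.5% of NDUFB8 and 51.4% of NDUFS7, and counting without strand leaves out reads there. The signs of NDUFA5, NDUFB8, NDUFS7 and NDUFV2 changed when 1 library was left out, so no direction is given for them.

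In complex II, succinate dehydrogenase, which also works in the citric acid cycle, 4 of 4 nuclear members passed higher, with a median log2 fold change of 0.34. SDHA, the flavoprotein subunit, had 2026 and 1840 counts in LNCaP95, against 2490 and 2803 in LN95(KO), for a log2 fold change of 0.49 (SE 0.06). SDHB, its iron-sulfur partner, had 1435 and 1421 counts against 1764 and 2014, a log2 fold change of 0.44 (SE 0.06). The membrane anchors showed smaller differences. SDHC, at 3531 and 3448 counts against 3868 and 4209, had a log2 fold change of 0.24 (SE 0.05), and SDHD one of 0.20 (SE 0.07).

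In complex III, which passes electrons from ubiquinol to cytochrome c, 7 of 7 nuclear members passed higher, and the median of 0.53 was the highest of the 5 complexes. UQCRQ, a small subunit, had 1837 and 1709 counts in LNCaP95, against 2674 and 2960 in LN95(KO), for a log2 fold change of 0.70 (SE 0.06). UQCRH, the hinge subunit, had 3042 and 2761 counts against 4235 and 4786, a log2 fold change of 0.67 (SE 0.06). CYC1, the cytochrome c1, stood at 0.63 (SE 0.06), and UQCRFS1, the iron-sulfur subunit, at 0.18 (SE 0.06). Against these stood the -1.09 of MT-CYB, the one subunit of the complex made from mtDNA.

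In complex IV 5 of 6 nuclear members passed higher, with a median log2 fold change of 0.49. COX5A, a subunit on the matrix side, had 2327 and 2227 counts in LNCaP95, against 3737 and 4201 in LN95(KO), for a log2 fold change of 0.83 (SE 0.05). COX4I1, the common form of subunit 4, had 3703 and 3370 counts against 5026 and 5414, a log2 fold change of 0.59 (SE 0.05). COX7C, the highest of the 6 per kilobase, had 5758 and 5257 counts against 5973 and 6138, a log2 fold change of 0.17 (SE 0.05), and its call was lost at 0.11 without LNCaP95 replicate 2. COX6C had a log2 fold change of 0.15 (SE 0.07) and did not pass.

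In complex V, the ATP synthase, 8 of 8 nuclear members passed higher, with a median log2 fold change of 0.45. ATP5MC1, 1 of 3 genes whose mature product is the same subunit c of the rotor ring, was the only nuclear member past a fold of 2. It had 617 and 566 counts in LNCaP95, against 1574 and 1811 in LN95(KO), and the level went from 32.2 ± 1.79 CPM to 94.1 ± 7.29 CPM, with a log2 fold change of 1.55 (SE 0.07). ATP5F1B, the catalytic beta subunit, had the highest level per kilobase of all nuclear members, with 21997 and 21058 counts against 31264 and 35028 and a log2 fold change of 0.65 (SE 0.05). The remaining 6 ranged from 0.31 in ATP5PF to 0.54 in ATP5F1D.

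**Figure D4:**
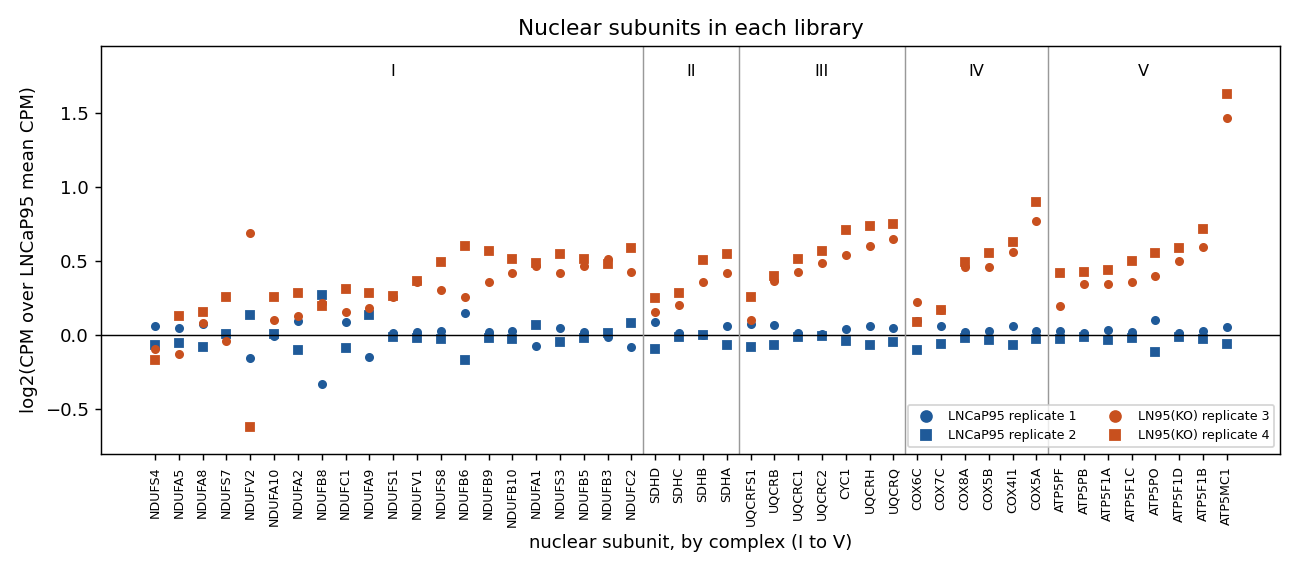
Level of each nuclear member in each library as log2 of its CPM over the mean CPM of LNCaP95, ordered within each complex by fold change. The LN95(KO) points lie above 0 for most members, ATP5MC1 stands apart at the right, and NDUFV2 and NDUFB8 show the widest spread within a group.

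The genes of subunit c were followed as a set, since the other 2 are not among the members. Of the summed CPM of ATP5MC1, ATP5MC2 and ATP5MC3, ATP5MC1 held 6.97% and 6.82% in LNCaP95, against 13.1% and 13.4% in LN95(KO). ATP5MC2 held 65.9% and 66.2% against 56.9% and 54.9%, and ATP5MC3 27.1% and 27.0% against 30.0% and 31.6%. Their sum was 479 and 453 CPM in LNCaP95 and 681 and 739 CPM in LN95(KO). ATP5MC2 held the largest share in all 4 libraries, and the share of ATP5MC1 was higher in both LN95(KO) libraries than in either LNCaP95 library.

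Levels of the genomes were far apart. Per kilobase of transcript, the mtDNA-encoded members ranged from 168 to 37057 CPM in LNCaP95 with a median of 13789, and the nuclear members from 0.984 to 666 CPM with a median of 81.6. MT-CO2 ranked highest in both groups and NDUFV2 lowest. Among the 59, MT-CYB went from rank 6 in LNCaP95 to rank 9 in LN95(KO), MT-ATP6 from rank 7 to rank 5 and MT-ATP8 from rank 23 to rank 31. ATP5MC1 went from rank 43 to rank 33. The ranks of MT-ATP8 and NDUFV2 rest on counts that leave out reads on bases shared with another gene.

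Replicates of a group differed slightly and in 1 direction across the nuclear members. The nuclear members were higher in LNCaP95 replicate 1 than in replicate 2 in 38 of 46 genes, with a median log2 ratio of 0.05, and higher in LN95(KO) replicate 4 than in replicate 3 in 40 of 46, with a median of 0.10. These within-group medians are smaller than the 0.43 between groups. The 46 genes thus do not vary independently of each other among libraries.

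The nuclear members lie on 18 chromosomes, with at most 6 on any (chromosome 11). Tested genes within 1 Mb of each member were used to describe the surroundings of each gene. The median of the neighbour medians was -0.02, 27 of the 46 neighbour medians were below 0, and 45 of 46 members stood above their own neighbours. ATP5MC1 (chromosome 17, 46970127 to 46973233 on the plus strand of GRCh37) had neighbours at -0.04, and COX5A (chromosome 15, 75212132 to 75230424 on the minus strand) had neighbours at 0.08. NDUFS4 (chromosome 5, 52856463 to 52979168 on the plus strand) had neighbours at -0.65, the lowest of the 46.

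Promoters of the nuclear members were searched for the motifs of factors known to bind them, because many of these genes moved together. Windows from 250 bases before to 50 bases after the start came from RefSeq (GRCh38.p14), and 37 of 46 nuclear members matched. The motif of NRF1 (nuclear respiratory factor 1), GCGCA, any base and GCGC on either strand, was in 8 of 37 (21.6%), against 11.9% of the promoters of tested genes and 6.28% of all promoters. The motif of GABP, CCGGAAG on either strand, was in 11 of 37 (29.7%), against 18.8% and 10.7%. Of the 8 members with the NRF1 motif 6 passed higher, with a median log2 fold change of 0.33, and of the 29 without it 23 passed, with a median of 0.40. Of the 11 with the GABP motif 11 passed higher, with a median of 0.48, and of the 26 without it 18 passed, with a median of 0.37. These counts stand beside 29.8% of all genes tested that passed higher. The share passing among all tested genes with either motif was not counted. Only SDHD held both motifs, and its matches do not overlap. A match is a run of letters and no site of binding, and its part in the fold changes was not tested. Of the members already described, SDHA had the most copies of the NRF1 motif and SDHD held both motifs. UQCRQ, with the highest log2 fold change of complex III, held that of GABP, as did UQCRH. Their promoters are shown 5′ to 3′ on the plus strand with the motifs in capitals.
SDHA, chr5:218070-218369: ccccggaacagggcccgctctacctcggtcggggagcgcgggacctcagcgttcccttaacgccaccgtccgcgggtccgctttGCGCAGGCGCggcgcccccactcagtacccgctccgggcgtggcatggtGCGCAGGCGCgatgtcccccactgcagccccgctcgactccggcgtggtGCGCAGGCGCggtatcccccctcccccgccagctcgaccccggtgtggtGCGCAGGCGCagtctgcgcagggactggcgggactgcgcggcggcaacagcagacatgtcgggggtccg
SDHD, chr11:112086623-112086922: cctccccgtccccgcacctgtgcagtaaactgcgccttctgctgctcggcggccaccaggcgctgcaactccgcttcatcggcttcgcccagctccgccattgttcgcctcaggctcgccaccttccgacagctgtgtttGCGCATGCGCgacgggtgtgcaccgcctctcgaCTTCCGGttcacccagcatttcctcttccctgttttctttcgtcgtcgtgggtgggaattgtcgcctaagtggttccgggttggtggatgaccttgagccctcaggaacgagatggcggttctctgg
UQCRQ, chr5:132866392-132866691: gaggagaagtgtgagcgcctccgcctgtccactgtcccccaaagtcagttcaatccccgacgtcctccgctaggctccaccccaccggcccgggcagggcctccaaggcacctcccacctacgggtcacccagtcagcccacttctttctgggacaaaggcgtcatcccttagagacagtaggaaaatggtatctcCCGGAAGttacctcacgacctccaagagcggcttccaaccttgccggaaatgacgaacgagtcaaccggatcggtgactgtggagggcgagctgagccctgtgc

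Most tested subunits of the chain outside the 59 also passed higher. Of 41 other nuclear subunits 35 were tested, 26 passed higher, 3 lower and 6 did not pass, with a median log2 fold change of 0.36. Across all genes tested, 29.8% passed higher and 30.1% lower. COX7B2, an isoform of a small complex IV subunit that is best known from testis, had 60 and 49 counts in LNCaP95, against 0 and 0 in LN95(KO), at least 35.5-fold lower with 3 counts over the group as the floor. The other lower genes were COX7A2L, which takes part in joining complexes III and IV, at -0.18 (SE 0.05, edgeR adjusted p 0.00548), and ATP5IF1, the inhibitor of the ATP synthase, at -0.20 (SE 0.05, edgeR adjusted p 0.00118).

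Assembly factors, which build the complexes without staying in them, passed in both directions. Of 52 factors 51 were tested, 20 passed higher, 5 lower and 26 did not pass, with a median log2 fold change of 0.07. The shares over all genes tested were 29.8% higher and 30.1% lower. NDUFAF4, a complex I assembly factor, had 944 and 890 counts in LNCaP95, against 354 and 370 in LN95(KO), for a log2 fold change of -1.31 (SE 0.07, edgeR adjusted p 1.03e-10). FOXRED1, also for complex I, had 452 and 503 counts against 878 and 1050, a log2 fold change of 1.04 (SE 0.08, edgeR adjusted p 1.02e-08). These were the only factors past a fold of 2, and they lay on opposite sides of 0.

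Genes that transcribe, process or stabilise mitochondrial RNA, or that control nuclear respiratory genes, were 19. Of these 7 passed higher, 2 lower and 10 did not pass, beside 29.8% of all genes tested higher and 30.1% lower. The median log2 fold change of the 19 was 0.10, and the count that passed fell from 9 to 5 with DESeq2. NRF1 had 1140 and 1199 counts in LNCaP95, against 437 and 489 in LN95(KO), for a log2 fold change of -1.30 (SE 0.07, edgeR adjusted p 6.16e-11). GABPA, the DNA-binding subunit of GABP, was lower at -0.27 (SE 0.09, edgeR adjusted p 0.0114). The mitochondrial RNA polymerase POLRMT stood at -0.03 (SE 0.06, edgeR adjusted p 0.695) and the mtDNA packaging factor TFAM at 0.13 (SE 0.07, edgeR adjusted p 0.0898), and neither passed. LRPPRC, which stabilises mitochondrial mRNAs with SLIRP, was higher at 0.30 (SE 0.05, edgeR adjusted p 2.57e-05), and SLIRP at 0.44 (SE 0.08, edgeR adjusted p 0.000211).

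Mitochondrial genes outside the chain, for import, membranes and matrix, were 19, with a median log2 fold change of 0.27. Of these 14 passed higher, 1 lower and 4 did not pass, beside 29.8% of all genes tested higher and 30.1% lower. CS, the citrate synthase of the citric acid cycle, had 7133 and 7393 counts in LNCaP95, against 13246 and 14608 in LN95(KO), for a log2 fold change of 0.97 (SE 0.05, edgeR adjusted p 1.98e-11). VDAC2, a channel of the outer membrane, had 2193 and 2109 counts against 3083 and 3322, a log2 fold change of 0.61 (SE 0.05, edgeR adjusted p 1.78e-08). HSPA9, the matrix Hsp70, was lower at -0.17 (SE 0.04, edgeR adjusted p 0.00318).

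**Figure D5:**
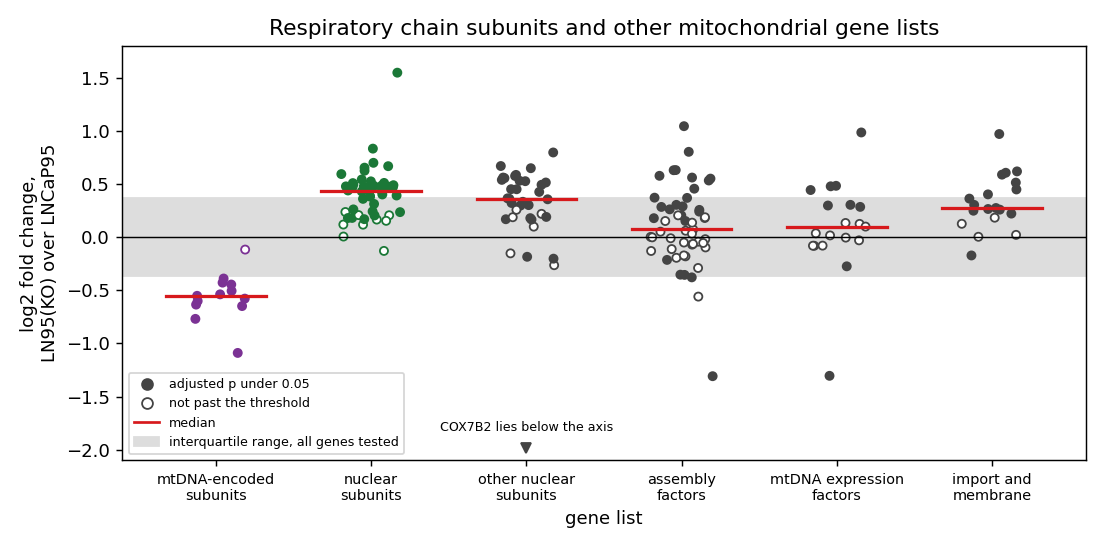
Log2 fold change of LN95(KO) over LNCaP95 for the mtDNA-encoded and nuclear members and 4 lists of other mitochondrial genes, with filled points for an adjusted p under 0.05, red lines for medians and a grey band for the interquartile range of all genes tested. COX7B2, with 0 counts in LN95(KO), lies below the axis and is drawn as a triangle, and the list medians run from -0.55 to 0.43.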

How the data were processed

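Members, gene lists and alternatives were chosen with earlier results of these data known. The deposited values were raw counts per gene. To make them, the authors used hisat2 (version 2.1.0) on hg19 and then htseq without strand; which mitochondrial sequence that genome held was not given in the sources used here. Per the labels, mRNA was enriched with oligo(dT) before DNBseq sequencing. Symbols and GRCh37 annotation came from GENCODE, a later release than the counts, and 59899 of 60880 identifiers matched. The 5 summary lines per library were kept out of library sizes.

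Counts of 4 libraries were fitted with edgeR (version 4.0.16, R version 4.3.3; quasi-likelihood, robust, TMM, filterByExpr with a minimum count of 10, no covariate) and adjusted over 15626 genes. The procedure was tested on simulated data in which genes varied independently and changed by a fold of 2 or more. Smaller shifts, such as those of most members, were not simulated. CPM use TMM-scaled library sizes, and levels between genes are per kilobase of the canonical transcript. Fold changes are LN95(KO) over LNCaP95, on the log2 scale. Each SE was derived from the test, as the absolute log2 fold change over the square root of the quasi-likelihood F value. With 2 libraries against 2 the smallest permutation p is 0.333, so no permutation test was used. Wilson intervals and the floor for a count of 0 (3 counts over both libraries of a group) cover counting error only. Replicates differed by more than sampling noise (chi-square per degree of freedom 2.31 and 3.31).

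Genes named were UGT2B17, all mtDNA-encoded members and rRNAs, and in each complex the nuclear members with the 2 largest changes in each direction, the highest level per length or a fold over 2. In the other lists they were up to 5 past both thresholds, or the 2 with the smallest adjusted p. Other genes were named after their values were seen. Alternatives were DESeq2 (version 1.42.0), other scaling, no filter, mitochondrial genes left out and each library left out. Some luminal markers are not reported here.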

Additional observations from a re-analysis of the deposited data

Results flagged for a closer look

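Reads not aligned, which lie outside the gene counts, were higher in both LN95(KO) libraries than in both LNCaP95 libraries. They made up 8.05% and 7.71% of all entries in LN95(KO), against 3.85% and 3.96% in LNCaP95. Among aligned entries, reads aligned more than once made up 4.12% and 4.19% in LN95(KO), against 3.94% and 3.96% in LNCaP95. Of all entries, the base used for the unaligned reads, they made up 3.78% and 3.86% against 3.79% and 3.80%, so that the groups overlapped and the difference depends on the base. Neither measure entered the fits, and their part in the member values was not tested.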

How the results depend on the processing

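No value of a passing member reversed. The 12 passing mtDNA-encoded members kept their direction in 108 of 108 values over 9 alternatives, and the 37 passing nuclear members in 333 of 333. These fits reuse the same libraries, so their values are not independent. Among members that did not pass, MT-ATP8, NDUFA5, NDUFB8, NDUFS7 and NDUFV2 changed sign when 1 library was left out. With library totals in place of TMM, the median log2 fold change was -0.50 for the mtDNA-encoded members, 0.49 for the nuclear members and 0.51 for nuclear complex V, while the median of all genes moved to 0.05. Leaving out 1 library at a time gave -0.59 to -0.51 for the mtDNA-encoded median, 0.36 to 0.50 for the nuclear median and 0.38 to 0.53 for nuclear complex V. The number of nuclear members that passed ranged from 31 to 38 in those fits, and was 34 with DESeq2, where NDUFA10, SDHD and UQCRFS1 lost their calls. The factors for mitochondrial RNA that passed numbered 5 with DESeq2 in place of 9. The difference in mitochondrial mRNA share was -4.83 points of all entries and -6.70 points with rRNAs and tRNAs, in place of -5.79. Over all genes, 2811 passed an adjusted p under 0.05 with a fold over 2, against 1687 in a test against that fold and 9349 at the adjusted p alone. For the changes that the construction of an alternative does not show, the cause was not tested. Adding the chromosome 1 copies was chosen after seeing the data.

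No paired analysis was possible because replicate numbers differ between the groups (1 and 2 against 3 and 4). Low counts limit NDUFV2, NDUFB8 and NDUFS7, whose counts of 10 to 114 do not settle a direction. Of their exon bases 28.4%, 48.5% and 51.4% lie under another gene, and the part of that in the low counts was not tested. With 2 libraries in each group and an unknown number of knockout clones, differences between separately derived lines cannot be told apart from an effect of the knockout.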

Other observations

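Some nuclear copies of mitochondrial genes were uneven between the LNCaP95 replicates. MTND4P12, on chromosome 5, had 264 and 1276 counts in the LNCaP95 replicates, against 144 and 226 in LN95(KO). MTND6P4, on the same chromosome, had 18 and 94 counts against 19 and 12. MT-ND4 and MT-ND6 themselves did not show that spread, at 493939 and 496312 counts and at 18024 and 19255 counts in the same LNCaP95 libraries. These copies were chosen after their values were seen.

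Several isoforms of complex IV subunits that are known from single tissues were at the limit of detection. COX4I2, COX6A2, COX6B2, COX7A1 and COX8C had at most 2 counts in any library. SCO2, a copper chaperone of complex IV, had 0 counts in all 4 libraries, and 88.2% of its exon bases lie under another gene, where reads were left out of the counting.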
